A study of Mus musculus with 167 samples.

Results

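Mouse embryonic fibroblasts transduced with Spib, Irf8 and Ikzf2 (SII) and sorted on day 3 as double-positive cells, positive for both a YFP reporter and CD45, were compared with untransduced fibroblasts of the same line. The libraries were taken by their titles: 4 of YFP+CD45+ cells 3 days after transduction and 4 of fibroblasts, which makes 8 libraries in 2 of the 41 groups of the series, or 4.79% of its RNA-seq libraries. All 8 came from the hCD2 line, whose genotype is heterozygous hCD2(Cre/WT) Rosa26(YFP/WT) on a C57BL/6 background. The fibroblasts (hCD2.MEF) were sorted as live, DAPI-negative cells that were YFP-CD45-, and the SII cells as live YFP+CD45+ cells after lentiviral transduction and culture on gelatin in DMEM with 10% serum. Each library was made from the RNA of 5000 sorted cells. Further hCD2 libraries were used for comparison: 5 of day 3 cells sorted as YFP+ only, 5 of day 3 cells sorted as CD45+ only, and 3 each of YFP+CD45+ cells on days 6 and 9. The C9a line, homozygous for Clec9a(Cre/Cre) and Rosa26(tdTomato/tdTomato), gave 4 libraries of tdT-CD45- fibroblasts and 4 of day 3 SII cells sorted as tdT+CD45+. Transduction, the cocktail, culture and the sort gate all differ between double-positive cells and fibroblasts and cannot be told apart. The labels do not say whether replicates were separate cultures or embryos, so a p-value here measures only the spread between these libraries, which may be technical.

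Spib encodes an ETS-family transcription factor of plasmacytoid dendritic cells and B cells, Irf8 an interferon regulatory factor needed for conventional type 1 dendritic cells (cDC1) and active in plasmacytoid dendritic cells (pDC), and Ikzf2 encodes Helios, a zinc-finger protein of the Ikaros family. ETS and IRF proteins are known to bind DNA together at composite elements, and IRF proteins also bind the interferon-stimulated response element. Fibroblasts make collagen-rich matrix and carry receptors for platelet-derived growth factors. CD45, the product of Ptprc, is a phosphatase on the surface of nucleated blood cells. A Cre-dependent Rosa26 reporter stays on in a cell once Cre has recombined it.

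Total counts ranged from 11326365 to 14331527 in fibroblasts and from 9756715 to 11171193 in double-positive cells. Counts from mitochondrial genes made up 3.12 to 4.83% of the fibroblast libraries and 7.21 to 8.55% of the double-positive ones. The double-positive libraries fell into pairs by Xist, the RNA of the inactive X chromosome: libraries 1 and 2 held 135.4 and 137.9 CPM (read counts scaled to a common library size), as fibroblasts did (127.2 to 214), while libraries 3 and 4 held 5.87 and 6.98. The Y-linked gene Ddx3y was at 36.3 and 32.7 CPM in libraries 1 and 2 and at 71.1 and 76.9 CPM in libraries 3 and 4, against 18.4 to 19.8 CPM in fibroblasts. Fitting the double-positive libraries without libraries 3 and 4, or without libraries 1 and 2, is therefore given beside results that the choice moves. Further libraries that stood apart were the fifth YFP+ one, the first day 9 one and the second C9a SII one, and results that rest on them are given with and without them. Levels in the text are CPM scaled with TMM factors over 81 libraries, and the error after a log2 fold change is its standard error. A gene was called higher or lower at an adjusted p under 0.05 with a change of at least 2-fold.

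Of 15583 genes tested, 1678 were higher in double-positive cells (10.8%) and 2076 were lower (13.3%), 24.1% in all. The median log2 fold change over all tested genes was -0.015. The libraries of the groups did not overlap for 52.6% of tested genes. Without double-positive libraries 3 and 4, 1549 genes were higher and 1891 lower. Without libraries 1 and 2, 2114 were higher and 2575 lower. Of the genes called higher with all libraries, 1360 were also called without libraries 3 and 4 (8.73% of tested genes), and of the lower ones 1605 (10.3%).

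The transduced factors came first in the levels. Spib was at 0.0702, 0.167, 0.0911 and 0.171 CPM in the fibroblast libraries and at 188, 183, 265 and 265 CPM in the double-positive ones (log2 fold change 10.75 ± 0.28, edgeR adjusted p = 1.0e-09). Irf8 stood at 0.421, 0.502, 0.182 and 1.11 CPM in fibroblasts and at 426, 372, 558 and 607 CPM in double-positive cells (log2 fold change 9.80 ± 0.34, edgeR adjusted p = 5.4e-08). Ikzf2 was the factor with the highest fibroblast level, 7.09, 7.61, 6.65 and 9.06 CPM, and reached 1271, 992, 1439.7 and 1529.8 CPM (log2 fold change 7.46 ± 0.19, edgeR adjusted p = 5.4e-10). For each factor every double-positive library was above every fibroblast library, and libraries 3 and 4 held more of it than libraries 1 and 2. Reads of the lentiviral and the endogenous copies cannot be told apart in these counts. Ptprc, which the gate selects on, was at 0, 0.0836, 0.182 and 0.171 CPM in fibroblasts and at 261, 208, 273 and 292 CPM in double-positive cells, a difference set by the sort.

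**Figure D1:**
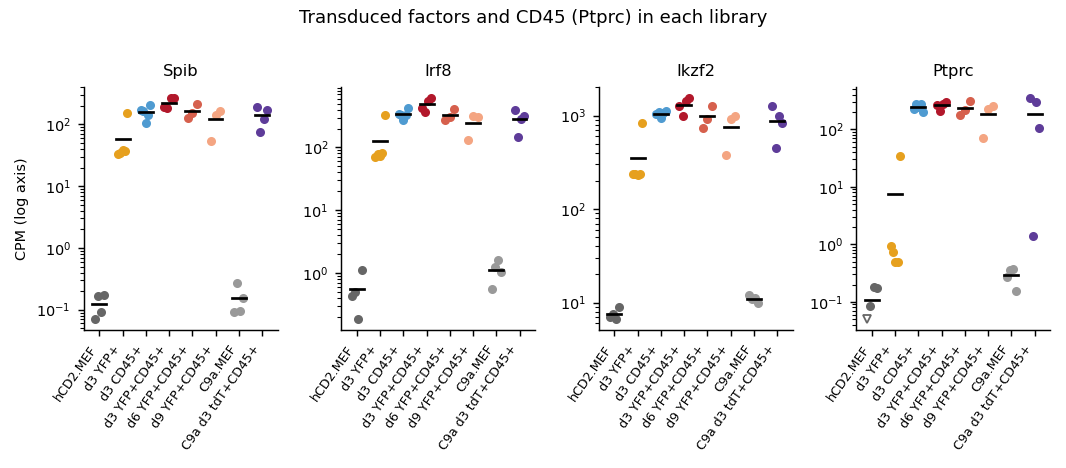
Levels of Spib, Irf8, Ikzf2 and Ptprc in CPM (log axis) in each library of the hCD2 groups and the C9a groups. Points are libraries, horizontal lines are group means, and open triangles are libraries under 0.05 CPM drawn at 0.05. The double-positive libraries hold Spib at 183 to 265 CPM, and the fifth d3 YFP+ library stands above the other YFP+ libraries in all 4 genes.

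Among 27 tested transcription factors of dendritic cells other than the transduced ones, 12 rose and 2 fell, with a median log2 fold change of 0.77. Irf5, an interferon regulatory factor downstream of Toll-like receptors, was at 4.98, 6.02, 5.65 and 5.90 CPM in fibroblasts and at 54.2, 54.8, 86.9 and 81.04 CPM in double-positive cells (log2 fold change 3.66 ± 0.20, edgeR adjusted p = 1.8e-07). Batf, an AP-1 partner of IRF proteins, rose from 0.563 ± 0.142 to 7.64 ± 1.52 CPM (SD, n = 4 in each group; log2 fold change 3.75 ± 0.26, edgeR adjusted p = 4.3e-07). Runx3 was at 16.4, 15.95, 45.8 and 51.1 CPM in double-positive cells, higher in libraries 3 and 4, and at 2.80 ± 0.466 CPM in fibroblasts. The repressor gene Prdm1 rose by 2.90, Id2 by 2.88, Bcl6 by 2.57 and Fli1 by 2.25 on the log2 scale. Spi1, which encodes PU.1, the myeloid ETS factor closest to Spib, rose by 1.86 but only to 4.36 ± 1.47 CPM. Zeb2 and Runx1 rose by 1.73 and 1.37 from fibroblast levels of 117.8 ± 13.7 and 52.2 ± 5.99 CPM. Klf4 went the other way, from 131.6, 117.9, 104.2 and 115.5 CPM to 33.4, 38.96, 34.4 and 34.4 CPM (log2 fold change -1.70 ± 0.09, edgeR adjusted p = 5.4e-08), as did Cebpb (log2 fold change -1.23 ± 0.13, edgeR adjusted p = 1.1e-05). Irf7, the interferon-inducing factor of pDC, was not called: it was at 156.9 ± 14.2 CPM in fibroblasts and 188 ± 47.7 CPM in double-positive cells. Batf3 and Irf4, factors of conventional dendritic cells, stayed under 1 CPM in both groups and were not tested.

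The Ikaros relatives of Ikzf2 moved apart from each other. Ikzf3, which encodes Aiolos, was at 0.211, 0.167, 0.638 and 0.342 CPM in fibroblasts and at 11.7, 13.8, 28.1 and 28.2 CPM in double-positive cells (log2 fold change 5.95 ± 0.50, edgeR adjusted p = 9.6e-06). Ikzf1 was also higher (1.34), at 2.07 ± 0.513 CPM, while Ikzf4 fell from 7.53 ± 1.03 to 3.24 ± 0.785 CPM (log2 fold change -1.18 ± 0.21, edgeR adjusted p = 6.1e-04). Ikzf5, at 14.5 ± 1.68 and 12.02 ± 1.31 CPM, was not called.

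Genes shared by leukocytes of many kinds were raised. Of 34 pan-leukocyte genes 24 passed the filter on low counts, of which 21 rose and 1 fell (median log2 fold change 5.12). A gene that passed only through its level in double-positive cells had to differ. The counts of this list and of the other lists therefore describe them and are no test of them. Inpp5d, the lipid phosphatase SHIP1, was at 0.0702, 0.167, 0.0911 and 0.171 CPM in fibroblasts and at 92.4, 84.1, 110.02 and 108.2 CPM in double-positive cells (log2 fold change 9.56 ± 0.21, edgeR adjusted p = 9.7e-11). Vav1, an exchange factor for Rac in blood cells, was at 0.140, 0.167, 0.182 and 0.342 CPM in fibroblasts and at 46.4, 41.6, 76.1 and 77.6 CPM in double-positive cells (log2 fold change 8.17 ± 0.38, edgeR adjusted p = 1.8e-07). The lysosomal membrane protein gene Laptm5 reached 135.6 ± 45.7 CPM, the β2 integrin Itgb2 149.2 ± 36.2 CPM, the actin regulator Coro1a 71.8 ± 26.8 CPM and the tetraspanin Cd53 100.4 ± 3.23 CPM, each from under 1.3 CPM in fibroblasts. Plek, a protein kinase C substrate of platelets and leukocytes, rose from 1.25 ± 0.311 to 214 ± 8.82 CPM. Other members stayed near the bottom of the range: Tyrobp, Fcer1g, Rac2, Cd48, Cd52 and Lcp2 were each under 0.5 CPM in double-positive cells and were not tested. Lsp1 was the member that fell, from 87.5, 87.2, 97.6 and 76.6 CPM to 13.9, 17.5, 13.9 and 12.4 CPM (log2 fold change -2.56 ± 0.11, edgeR adjusted p = 1.6e-08). Arhgdib, already at 128.8 ± 5.99 CPM in fibroblasts, was not called.

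Signalling proteins of blood cells were raised too. Of 21 tested kinases, phosphatidylinositol 3-kinase parts and adaptors, 19 rose and 0 fell (median 2.87; 26 on the list). Over all genes tested 10.8% rose and 13.3% fell, and the filter on low counts bears on this list too. Where a list of this comparison has 0 calls in one direction, the DESeq2 Wald test gave 0 as well; at an unadjusted edgeR p under 0.05 and any fold, 0 kinases or adaptors were lower. Pik3ap1, the adaptor BCAP that links B cell and Toll-like receptors to PI3-kinase, was at 0.140, 0.0836, 0 and 0.427 CPM in fibroblasts and at 91.4, 96.1, 109.5 and 112.9 CPM in double-positive cells (log2 fold change 9.23 ± 0.28, edgeR adjusted p = 1.9e-09). Pik3r5, a regulatory subunit of PI3-kinase γ, rose from 3.16 ± 0.518 to 66.3 ± 4.18 CPM (log2 fold change 4.42 ± 0.12, edgeR adjusted p = 6.5e-10). The catalytic subunit of the same enzyme, Pik3cg, reached 1.60 ± 0.169 CPM. Syk, the kinase below immunoreceptors with ITAM motifs, rose from 12.99 ± 1.26 to 257 ± 44.5 CPM, and Lyn, a Src-family kinase, from 32.97 ± 3.95 to 248 ± 7.16 CPM. Phospholipase Plcg2 rose by 3.45 on the log2 scale, the adaptor Skap2 by 2.86 and the kinase Fes by 2.87. Btk, a kinase of B and myeloid cells, was 152.9-fold higher (95% counting interval 26.9 to 6086) at 3.10 ± 0.823 CPM. Dok2, an adaptor that restrains tyrosine kinases, differed between the pairs of libraries, at 3.34, 3.26, 9.79 and 12.002 CPM against 0.243 ± 0.138 CPM in fibroblasts. Rasgrp2 and Dok3 were tested and not called.

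Most tested myeloid surface receptors rose. Of 45 genes on the list 21 were tested, 16 rose and 3 fell (median 4.92, and the same when genes without a fibroblast count are set at their lower bound). Over all genes tested 10.8% rose and 13.3% fell. Some members passed the filter only through double-positive cells and had to differ, so these counts are no test of the list. Pirb, an inhibitory receptor for MHC class I with ITIM motifs, had 1 count in 4 fibroblast libraries together and 198, 180.0, 234 and 242 CPM in double-positive cells, which is 10451-fold higher (95% counting interval 1875 to 412850). Its activating relative Pira2 had no fibroblast count and 7.32, 4.99, 4.99 and 4.62 CPM in double-positive cells, at least 90.1-fold higher. This bound takes the floor as 3 counts over the 4 fibroblast libraries. The inhibitory receptor Lilr4b was 2246-fold higher (95% counting interval 621 to 18552), at 91.7 ± 12.1 CPM. Pira and Lilr genes are near-identical copies in the mouse genome and may share reads. Mpeg1, the pore-forming perforin-2 of phagocytes, rose from 1.97 ± 0.187 to 475 ± 101.4 CPM, and Il10ra, the ligand-binding chain of the interleukin-10 receptor, from 0.227 ± 0.130 to 28.2 ± 7.63 CPM. The Fc receptors Fcgr3 and Fcgr2b reached 26.7 ± 13.4 and 3.94 ± 1.60 CPM, while Fcgr1 and Fcgr4 stayed under 0.2 CPM. Csf2rb, the shared β chain of the GM-CSF receptor, rose to 8.07 ± 3.75 CPM, whereas its α chain Csf2ra, at 5.09 ± 0.922 and 5.85 ± 0.345 CPM, and Csf1r, at 1.001 ± 0.635 and 1.52 ± 0.225 CPM, were not called. Siglecg, P2ry6 and C3ar1 fell. Siglecg was at 39.7, 47.1, 42.1 and 34.4 CPM in fibroblasts and at 22.5, 19.1, 7.15 and 3.80 CPM in double-positive cells (log2 fold change -1.60 ± 0.48, edgeR adjusted p = 0.025), and its call was lost without fibroblast library 2 (edgeR adjusted p = 0.057), without double-positive library 3 (edgeR adjusted p = 0.063) and without libraries 3 and 4 together (log2 fold change -0.93).

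Most markers of pDC and of conventional type 2 dendritic cells (cDC2) were too low to be tested on day 3. Most cDC1 markers were tested. Beside the counts below, 10.8% of all genes tested rose and 13.3% fell. Of 21 pDC markers 5 were tested and 2 rose. Without libraries 3 and 4, 3 rose and 1 fell of 7 tested, and without libraries 1 and 2, 2 rose and 0 fell of 7. Tlr9, the endosomal sensor of unmethylated DNA, was at 0.211, 0.0836, 0 and 0.0855 CPM in fibroblasts and at 6.30, 6.73, 13.02 and 11.2 CPM in double-positive cells (log2 fold change 6.41 ± 0.48, edgeR adjusted p = 9.0e-07), and Klra17 (Ly49Q) reached 2.31 ± 1.28 CPM. Siglech, Ccr9, Tlr7, Ly6d and Cox6a2, also on the pDC list, were each under 0.2 CPM in double-positive cells. Bst2, at 164.6 ± 30.7 CPM in fibroblasts and 95.7 ± 4.59 CPM in double-positive cells, was not called. The summed level of the pDC list was 145.1 to 205 CPM in fibroblasts and 109.9 to 117.9 CPM in double-positive cells, most of it Bst2. Of 16 cDC1 markers 9 were tested, 6 rose and 1 fell. Without libraries 3 and 4, 7 rose and 1 fell of 10 tested, and without libraries 1 and 2, 5 rose and 2 fell of 10. Rab7b was called lower without libraries 1 and 2 (log2 fold change -1.45, edgeR adjusted p = 2.5e-06). Its log2 fold change was -0.56 without libraries 3 and 4. The summed level of the cDC1 list was 141.4 to 158.4 CPM in fibroblasts and 447 to 508 CPM in double-positive cells. The scavenger receptor Cd36 was at 0.491, 0, 0.0911 and 0.0855 CPM in fibroblasts and at 31.2, 31.1, 21.1 and 20.2 CPM in double-positive cells (log2 fold change 7.10 ± 0.42, edgeR adjusted p = 4.4e-07). Naaa, a lysosomal amidase, rose from 10.01 ± 1.68 to 69.5 ± 3.38 CPM, Cd24a from 39.3 ± 4.74 to 218 ± 52.9 CPM and the adhesion molecule Cadm1 from 5.14 ± 0.931 to 22.4 ± 4.67 CPM. Tlr3, the sensor of double-stranded RNA, fell from 9.14 ± 1.20 to 1.41 ± 0.876 CPM (log2 fold change -2.64 ± 0.35, edgeR adjusted p = 8.1e-05). The defining cDC1 genes Xcr1 and Clec9a were at 0.291 ± 0.244 and 0.883 ± 0.537 CPM and were not tested. Of 14 cDC2 markers 4 were tested and 2 rose. Clec12a, an inhibitory C-type lectin, was 1266-fold higher (95% counting interval 227 to 50042) at 29.5, 30.5, 19.4 and 24.4 CPM, and the integrin Itgam, which encodes CD11b, went from 2.67, 7.11, 11.9 and 5.81 CPM to 71.8, 70.4, 62.8 and 71.5 CPM (log2 fold change 3.38 ± 0.36, edgeR adjusted p = 1.0e-04). Sirpa, at 50.1 ± 6.84 and 90.4 ± 13.6 CPM, did not reach the 2-fold threshold, but was called higher without libraries 3 and 4 (log2 fold change 1.06, edgeR adjusted p = 7.4e-06), and Cd209a, Mgl2 and Clec10a were under 0.4 CPM.

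Among markers shared by dendritic cells, 7 of 12 were tested, 6 rose and 1 fell. Itgax, which encodes CD11c, had 2 fibroblast counts and 3.34, 4.34, 7.83 and 11.5 CPM in double-positive cells, 163.9-fold higher (95% counting interval 44.9 to 1360), with the highest values in libraries 3 and 4. The adaptor subunit Ap1s3 rose from 0.661 ± 0.270 to 9.44 ± 2.43 CPM, the cytoskeletal adaptor Pstpip1 from 4.23 ± 1.11 to 20.3 ± 4.93 CPM and the peptidase Dpp4 from 1.52 ± 0.617 to 5.37 ± 1.82 CPM. Cst3, which encodes cystatin C, rose from 74.7 ± 3.95 to 205 ± 32.9 CPM. Adam19 fell from 215 ± 18.6 to 87.8 ± 20.95 CPM (log2 fold change -1.26 ± 0.15, edgeR adjusted p = 4.8e-05) and was under 2-fold without libraries 3 and 4 (-0.98). Flt3, the growth factor receptor of dendritic cell progenitors, and Ccr7 were at 0.396 ± 0.464 and 0.173 ± 0.175 CPM. In bulk libraries, a smaller share of cells with a gene cannot be told apart from less RNA of it per cell.

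Antigen presentation genes changed singly. Of 7 tested genes of the MHC class II pathway (12 on the list), 3 rose and 2 fell. Cd74, the invariant chain, was at 0.351, 0, 0.456 and 0.0855 CPM in fibroblasts and at 118.2, 106.6, 156.2 and 164.4 CPM in double-positive cells (log2 fold change 9.21 ± 0.36, edgeR adjusted p = 8.1e-08). Ctss, the cathepsin that trims the invariant chain in dendritic cells, had 1 fibroblast count and 15.1, 16.7, 18.6 and 24.6 CPM in double-positive cells, 914-fold higher (95% counting interval 163.5 to 36130). The class II chains themselves stayed low: H2-Ab1 fell from 5.33, 5.93, 6.84 and 6.50 CPM to 0.741, 1.41, 0.196 and 0.615 CPM (log2 fold change -3.02 ± 0.36, edgeR adjusted p = 3.2e-05), H2-Eb1 rose to 2.01 ± 0.872 CPM, and H2-Aa and the class II transactivator Ciita were at 0.101 ± 0.117 and 0.329 ± 0.227 CPM. In the class I pathway 3 of 19 tested genes rose and 2 fell (median 0.14), against 10.8% and 13.3% of all genes tested. Tapbp, which encodes tapasin, rose from 160.7, 177, 177 and 154.4 CPM to 439, 451, 601 and 624.8 CPM (log2 fold change 1.70 ± 0.13, edgeR adjusted p = 1.2e-06), and the trimming peptidase Erap1 from 19.6 ± 1.75 to 70.6 ± 4.77 CPM. H2-T22 fell from 209.9 ± 20.3 to 51.8 ± 17.05 CPM (log2 fold change -1.99 ± 0.21, edgeR adjusted p = 5.0e-05) and H2-Q7 from 15.5 ± 1.72 to 5.80 ± 1.72 CPM. B2m, the light chain, was at 764 ± 72.4 and 822 ± 100.5 CPM and was not called. Class I genes are near-identical copies and may share reads.

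In the Toll-like receptor pathway 4 of 13 tested genes rose and 2 fell, against 10.8% and 13.3% of all genes tested. Tlr1 was at 0, 0.167, 0 and 0.342 CPM in fibroblasts and at 5.47, 4.99, 5.48 and 8.51 CPM in double-positive cells (log2 fold change 5.54 ± 0.54, edgeR adjusted p = 6.9e-06). Unc93b1, the chaperone that brings nucleic acid sensors to endosomes, rose from 27.8 ± 2.23 to 119.3 ± 5.86 CPM (log2 fold change 2.14 ± 0.08, edgeR adjusted p = 3.8e-09), and Ly96, the co-receptor of Tlr4, from 1.65 ± 0.508 to 7.60 ± 1.29 CPM. Tlr2, the partner of Tlr1, fell from 22.6 ± 4.96 to 9.45 ± 1.997 CPM (log2 fold change -1.22 ± 0.19, edgeR adjusted p = 2.0e-04). The shared adaptor Myd88, at 27.4 ± 2.54 and 41.1 ± 3.89 CPM, was not called.

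Interferon-stimulated genes were lower in double-positive cells. All 38 on the list were tested, 28 fell and 3 rose, with a median log2 fold change of -2.28 against -0.015 over all genes. The counts were 28 and 3 again without libraries 3 and 4, and 27 and 4 without libraries 1 and 2. Oasl2, an oligoadenylate synthetase-like protein, was at 271, 269.8, 279 and 258 CPM in fibroblasts and at 23.7, 23.98, 12.7 and 13.03 CPM in double-positive cells (log2 fold change -3.84 ± 0.21, edgeR adjusted p = 6.7e-07). Ddx60, a helicase of RNA sensing, fell from 36.6, 24.4, 29.3 and 36.1 CPM to 3.80, 2.71, 0.979 and 0.923 CPM (log2 fold change -3.86 ± 0.36, edgeR adjusted p = 2.3e-05). Ifit3b, of the IFIT family that binds viral RNA, fell from 159.97, 140.1, 147.1 and 151.96 CPM to 20.6, 19.9, 6.85 and 5.85 CPM (log2 fold change -3.46 ± 0.40, edgeR adjusted p = 2.3e-04). In all 3 genes libraries 3 and 4 were below libraries 1 and 2, and every double-positive library was below every fibroblast library. The transmembrane protein chaperone Rtp4 had a log2 fold change of -3.56, Isg15 one of -2.92, Rsad2 one of -2.62 and the guanylate-binding protein Gbp2 one of -2.99. The RNA sensors Ddx58 and Ifih1 fell as well, with log2 fold changes of -2.65 and -2.48. Those that rose included Samhd1, a dNTP hydrolase abundant in myeloid cells, and Epsti1. Samhd1 was at 72.9, 73.2, 81.1 and 67.8 CPM in fibroblasts and at 610.2, 553, 817 and 828 CPM in double-positive cells (log2 fold change 3.29 ± 0.15, edgeR adjusted p = 2.8e-08). Stat2 and Irf9, which act below the interferon receptors, were not called. Stat2 was at 262 ± 21.1 and 194 ± 4.92 CPM.

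Promoter sequence is printed for 3 genes, since SPIB and IRF8 are known to bind elements made of GGAA and GAAA. The genes are Ctss, which rose, and the interferon-stimulated genes Ddx60 and Ifit3b, which fell and were chosen after their values were seen. Each window runs from 250 bases before the RefSeq start site (GRCm38.p6) up to it, 5′ to 3′ on the gene's strand, and capitals mark a match. Both strands were searched for an ETS and IRF composite element, GGAA and GAAA with any 2 bases between them, and for a repeat element, GAAA 2 times with any 2 bases between. The elements can overlap each other.
Ctss, chr3:95526536-95526785, plus strand: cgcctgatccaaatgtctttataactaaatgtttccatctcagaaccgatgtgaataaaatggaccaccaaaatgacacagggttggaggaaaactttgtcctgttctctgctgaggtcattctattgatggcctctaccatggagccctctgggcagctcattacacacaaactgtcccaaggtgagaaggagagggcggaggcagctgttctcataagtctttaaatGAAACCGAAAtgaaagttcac
Ddx60, chr8:61927837-61928086, plus strand: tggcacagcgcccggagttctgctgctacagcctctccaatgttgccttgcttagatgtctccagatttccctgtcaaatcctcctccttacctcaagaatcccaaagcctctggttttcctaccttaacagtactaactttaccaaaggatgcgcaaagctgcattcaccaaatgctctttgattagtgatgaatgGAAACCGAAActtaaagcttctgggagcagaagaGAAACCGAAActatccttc
Ifit3b, chr19:34607707-34607956, plus strand: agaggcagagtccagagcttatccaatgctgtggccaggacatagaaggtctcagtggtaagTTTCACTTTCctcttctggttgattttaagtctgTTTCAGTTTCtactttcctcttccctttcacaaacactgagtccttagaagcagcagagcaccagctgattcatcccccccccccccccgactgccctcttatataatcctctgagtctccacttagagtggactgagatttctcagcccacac
Ctss held the repeat element once, starting 21 bases before the start site. Ddx60 held the same element 2 times, 53 and 19 bases before its start site, and Ifit3b held it 2 times on the opposite strand, the farther one 188 bases before. Over all 32851 RefSeq windows that also take in the 50 bases after the start, 5.92% held either element, 2.72% the composite one and 3.44% the repeat. A window was found for 75.6% of the protein-coding genes that rose and for 71.5% of those that fell, so the shares of these sets were not compared. A match is a description of the letters, and the printed genes were picked among those that hold one.

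Cytokine and chemokine genes were mostly lower: of 13 tested 9 fell and 0 rose (median -2.05; 1 higher at an unadjusted p under 0.05). Without libraries 1 and 2, 2 were called higher and 13 lower of 16 tested (median -2.77), and without libraries 3 and 4, 0 and 10 of 15. Cxcl5, which attracts neutrophils, was at 135.3, 109.7, 103.5 and 121.2 CPM in fibroblasts and at 11.8, 11.2, 9.40 and 10.8 CPM in double-positive cells (log2 fold change -3.41 ± 0.11, edgeR adjusted p = 1.1e-09). Other chemokines that fell were Cxcl10 (log2 fold change -3.32), Cxcl1 (-3.21), the monocyte attractants Ccl7 (-2.75) and Ccl2 (-2.05), and Cxcl12 (-2.53). Cxcl9, at 2.98 ± 0.660 CPM in fibroblasts and with 3 counts over the double-positive libraries, was 39.8-fold lower (95% counting interval 13.4 to 195). Il6 was at 9.49 ± 0.606 CPM in fibroblasts and 4.92 ± 2.72 CPM in double-positive cells and was not called. Without libraries 1 and 2 it was called lower (log2 fold change -1.69, edgeR adjusted p = 7.0e-06), and without libraries 3 and 4 its log2 fold change was -0.41.

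**Figure D2:**
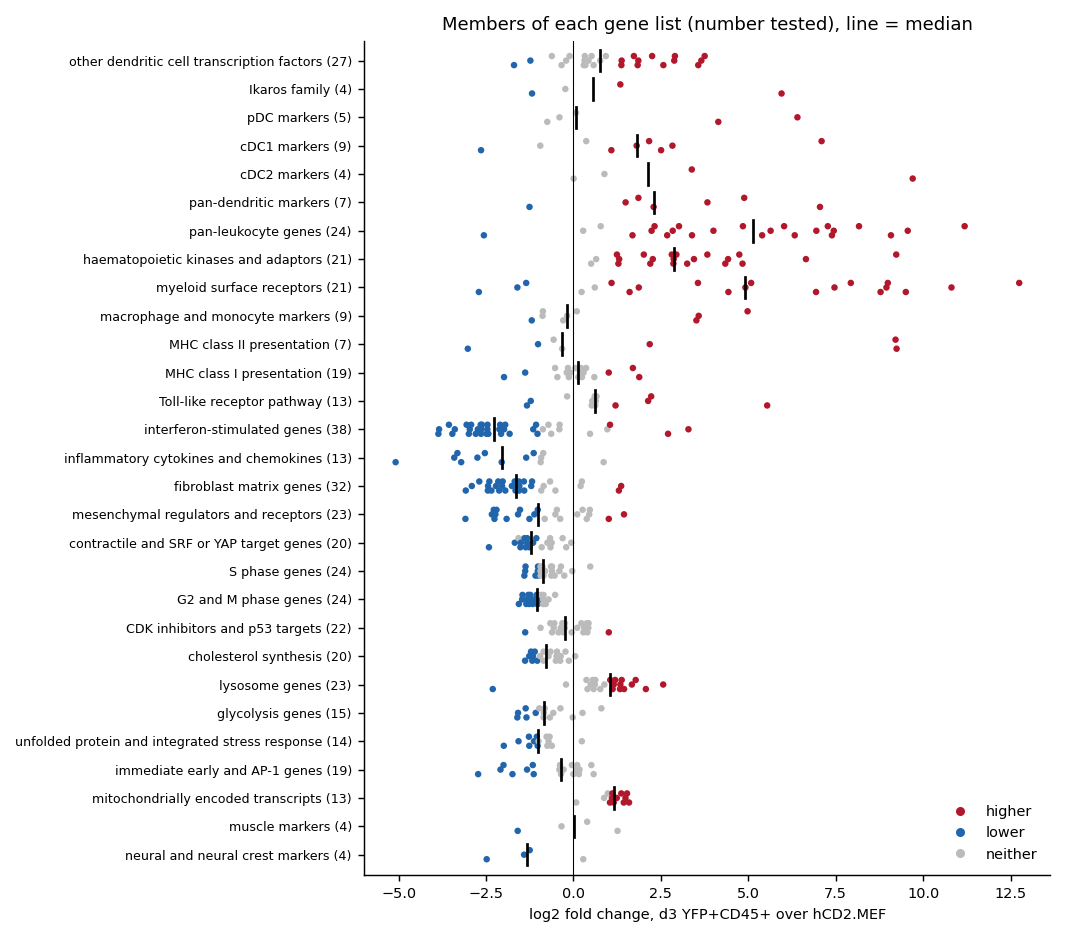
Log2 fold change of double-positive cells over fibroblasts for the tested members of each gene list with at least 4 tested members. Points are genes, red called higher, blue called lower and grey not called, and black lines are list medians. Values of genes with 3 or fewer counts in a group depend on the prior count. Pan-leukocyte genes have a median of 5.12 and interferon-stimulated genes one of -2.28.

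Fibroblast matrix genes fell in 24 of 32 cases and rose in 2 (median -1.63). Col6a3, a chain of collagen VI, was at 724, 608, 725 and 705 CPM in fibroblasts and at 99.4, 74.8, 84.96 and 100.5 CPM in double-positive cells (log2 fold change -2.91 ± 0.11, edgeR adjusted p = 3.9e-09). Lum, the collagen-binding proteoglycan lumican, fell from 53.98, 37.5, 39.6 and 51.96 CPM to 6.95, 5.53, 4.60 and 4.001 CPM (log2 fold change -3.08 ± 0.18, edgeR adjusted p = 1.9e-07). Col1a1, the main chain of collagen I, fell from 6981 ± 469 to 1565 ± 360.4 CPM, and Serpinh1, a collagen chaperone, had a log2 fold change of -2.15. The crosslinking enzyme Lox (-2.44) and the proteoglycan gene Dcn (-2.40) fell as well. Fn1, which encodes fibronectin, went the other way, from 8513, 8479, 10371 and 8187 CPM to 25999, 23301, 17634 and 18579 CPM (log2 fold change 1.30 ± 0.14, edgeR adjusted p = 1.1e-05), as did the metalloprotease inhibitor Timp2, from 645 ± 62.9 to 1624 ± 403 CPM. Thbs1, one of the most abundant matrix genes here, was at 10123 ± 1266 and 11670.1 ± 811 CPM and was not called. The summed level of the matrix list was 57346 to 65755 CPM in fibroblasts and 42751 to 55620.0 CPM in double-positive cells.

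Mesenchymal regulators and receptors fell in 12 of 23 tested cases and rose in 2 (median -1.02). Pdgfra, a platelet-derived growth factor receptor, was at 391, 386, 409.6 and 365 CPM in fibroblasts and at 49.1, 47.97, 38.3 and 42.8 CPM in double-positive cells (log2 fold change -3.09 ± 0.09, edgeR adjusted p = 6.5e-10). Log2 fold changes were -2.33 for Pdgfrb, -2.28 for the surface marker Thy1, -2.23 for the homeobox gene Prrx1 and -2.26 for the repressor Snai1. Vim, the intermediate filament vimentin, was at 3243 ± 108.5 and 3785 ± 652 CPM and was not called, and neither was Twist1. Tgfbr2, a receptor for TGF-β, rose from 122.6 ± 7.39 to 326 ± 35.5 CPM (log2 fold change 1.45 ± 0.08, edgeR adjusted p = 1.1e-07). Cdh2, N-cadherin, rose to 457 ± 59.9 CPM (log2 fold change 1.01 ± 0.10, edgeR adjusted p = 9.0e-06) and was under 2-fold in 9 of 17 alternatives.

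Contractile genes and targets of SRF or YAP fell in 11 of 20 cases, with none higher (median -1.21), and this count moved with the libraries: it was 6 without libraries 3 and 4 and 14 without libraries 1 and 2. Acta2, smooth muscle actin, was at 1853, 1611, 1633 and 1733 CPM in fibroblasts and at 770.2, 811, 243 and 269 CPM in double-positive cells (log2 fold change -1.68 ± 0.43, edgeR adjusted p = 0.012). Lmod1, an actin filament nucleator, showed the same split, from 145.5, 139.01, 125.9 and 137.5 CPM to 38.2, 43.1, 10.2 and 9.23 CPM (log2 fold change -2.42 ± 0.51, edgeR adjusted p = 0.0053). Ccn2, a YAP target, was under 2-fold without libraries 3 and 4 (-0.86), and its call was also lost without fibroblast library 1 or 2 (edgeR adjusted p = 0.053 each). Tpm1, a tropomyosin, had a log2 fold change of -1.50. Cald1, at 2847 ± 259 and 1765 ± 147.8 CPM, was not called.

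Most genes of G2 and M phase fell, and fewer S phase genes did. Of 24 genes of G2 and M phase 17 fell and 0 rose (median -1.04). The count was 21 without libraries 3 and 4 and 9 without libraries 1 and 2. Tpx2, a spindle assembly factor, was at 116.7, 123.5, 130.3 and 109.8 CPM in fibroblasts and at 37.1, 35.3, 44.9 and 41.2 CPM in double-positive cells (log2 fold change -1.56 ± 0.10, edgeR adjusted p = 2.0e-07). The kinases Aurka (-1.47) and Bub1 (-1.46) and cyclin A2, Ccna2 (-1.35), fell as well. Mki67, the common proliferation marker, was at 238, 186, 191 and 238 CPM in fibroblasts and at 75.2, 80.6, 132.04 and 149.05 CPM in double-positive cells; its log2 fold change of -0.93 was under the threshold, but passed it without libraries 3 and 4 (-1.41, edgeR adjusted p = 9.1e-07). Of 24 S phase genes 7 fell and 0 rose (1 higher at an unadjusted p under 0.05), and 10 fell without libraries 3 and 4 and 5 without libraries 1 and 2. Those that fell included the thymidylate synthase Tyms (-1.40), Gins2 (-1.38) and Uhrf1 (-1.37). Mcm6, at 64.7 ± 4.46 and 34.9 ± 2.80 CPM, was not called. Among 22 CDK inhibitor and p53 target genes 1 rose and 1 fell, against 10.8% and 13.3% of all genes tested. Bbc3, the pro-apoptotic PUMA, rose from 14.3 ± 1.16 to 28.1 ± 2.02 CPM (log2 fold change 1.01 ± 0.10, edgeR adjusted p = 9.5e-06) and was under 2-fold in 5 of 17 alternatives, without fibroblast library 3 or double-positive library 4 among them. Eda2r, a death receptor gene, fell (log2 fold change -1.38 ± 0.14, edgeR adjusted p = 9.6e-06). Cdkn1a, at 306 ± 17.4 and 204 ± 16.1 CPM, and Ccng1 were not called.

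Metabolic and stress lists also moved mostly one way. Of 20 cholesterol synthesis genes 7 fell and 0 rose, among them Cyp51 (-1.38) and Sqle (-1.26), and the count was 3 without libraries 3 and 4 and 10 without libraries 1 and 2. Acat2 was under 2-fold without libraries 3 and 4 (-0.95). Of 15 glycolysis genes 5 fell and 0 rose (2 higher at an unadjusted p under 0.05), among them the glucose transporter Slc2a1, from 244, 234, 237 and 231 CPM to 98.4, 101.9, 51.9 and 51.9 CPM (log2 fold change -1.60 ± 0.23, edgeR adjusted p = 4.4e-04), and Eno1 (-1.34). Pkm, the most abundant of the uncalled ones, was at 2109 ± 78.05 and 1291 ± 152.5 CPM. Of 14 genes of the unfolded protein and integrated stress responses 7 fell and 0 rose, among them the pseudokinase Trib3 (-1.99), asparagine synthetase Asns (-1.57) and Xbp1 (-1.26), and the count was 3 without libraries 3 and 4. Of 19 immediate early and AP-1 genes 7 fell and 0 rose (2 higher at an unadjusted p under 0.05). Egr1, a serum-responsive zinc-finger gene, was at 156.6, 158.6, 143.9 and 138.5 CPM in fibroblasts and at 20.8, 21.7, 20.7 and 25.03 CPM in double-positive cells (log2 fold change -2.73 ± 0.09, edgeR adjusted p = 1.2e-09), and Myc fell (-2.09). Fosl2, the most abundant uncalled member, was not called.

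Lysosome genes rose in 12 of 23 tested cases and fell in 1 (median 1.05). Ctsh, an aminopeptidase cathepsin, went from 17.8, 18.7, 16.5 and 16.6 CPM to 107.3, 101.6, 94.5 and 99.4 CPM (log2 fold change 2.57 ± 0.08, edgeR adjusted p = 9.3e-10). Grn, which encodes progranulin, went from 333, 320.2, 338 and 308 CPM to 1204, 1123, 1449.9 and 1540.3 CPM (log2 fold change 2.07 ± 0.11, edgeR adjusted p = 6.0e-08). Ctsc rose by 1.78, Lipa, the acid lipase, by 1.67, and the abundant cathepsin Ctsb from 553 ± 46.4 to 1406 ± 238 CPM. Ctsk, a collagen-degrading cathepsin, fell from 24.1 ± 4.23 to 4.77 ± 1.63 CPM (log2 fold change -2.31 ± 0.22, edgeR adjusted p = 8.6e-06). Psap was not called.

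Of 13 listed transcripts encoded by mitochondria 10 rose and 0 fell (median 1.15). The count that rose was 12 without libraries 3 and 4 and 6 without libraries 1 and 2. The share of counts in mitochondrial genes moved with these transcripts, as given above, and its part in this result was not tested. mt-Cytb was at 502, 307, 330.4 and 501 CPM in fibroblasts and at 1299.6, 1312, 1063 and 1149.9 CPM in double-positive cells (log2 fold change 1.59 ± 0.17, edgeR adjusted p = 3.0e-05). mt-Nd2, at 188 ± 32.7 and 363 ± 89.5 CPM, was just under 2-fold, and was called higher without libraries 3 and 4 (log2 fold change 1.27, edgeR adjusted p = 5.6e-05). The mitochondrial tRNAs mt-Tv, mt-Tk, mt-Th and mt-Tw, which are not on this list, went the other way. mt-Tv was at 9.62, 17.3, 14.04 and 13.3 CPM in fibroblasts and at 1.02, 0.868, 1.47 and 0.821 CPM in double-positive cells.

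Most markers of other blood cell types were low, and some macrophage and monocyte markers rose. The 14 granulocyte and mast cell markers summed to 0.702 to 1.79 CPM in fibroblasts and 1.23 to 2.50 CPM in double-positive cells, 5 of them at 0 in every double-positive library, and none was tested. The 11 B cell markers summed to 33.2 to 38 and 11.8 to 16.5 CPM, nearly all of it Ebf1, which fell (-1.50). Ms4a1 and Cd79a were each under 0.2 CPM in double-positive cells. The 16 T and NK cell markers summed to 27.8 to 31.5 and 18.7 to 49.2 CPM, mostly Bcl11b, which was at 12.2, 16.9, 39.7 and 39.3 CPM in double-positive cells and was not called. Without libraries 1 and 2 it was called higher (log2 fold change 1.07, edgeR adjusted p = 3.5e-06), and without libraries 3 and 4 its log2 fold change was -0.36 (edgeR adjusted p = 0.070). Hbb-bs, a β-globin gene, was at 0.130 ± 0.194 CPM. Of 9 tested macrophage and monocyte markers of 22, 3 rose and 1 fell, against 10.8% and 13.3% of all genes tested. Without libraries 3 and 4, 5 were called higher and 1 lower (median 0.89), and without libraries 1 and 2, 3 and 4 (median -0.56). Those that rose included Cd68, a lysosomal membrane protein, by 3.58 and the scavenger receptor Msr1 by 3.52 on the log2 scale, and Plac8 fell (-1.19). The defining macrophage genes Adgre1, C1qa and Mrc1 were each under 1 CPM. Lyz2 was at 7.87 ± 6.40 CPM and did not pass the filter. Gpnmb, at 87.3 ± 2.03 and 46.7 ± 28.9 CPM, was not called; without libraries 1 and 2 it was called lower (log2 fold change -1.97, edgeR adjusted p = 1.2e-09), and without libraries 3 and 4 its log2 fold change was -0.24. The summed level of the 22 macrophage and monocyte markers was 198 to 211 CPM in fibroblasts and 241 to 263 CPM in double-positive cells. Endothelial markers summed to 19.2 to 34.1 and 12 to 19.5 CPM, epithelial ones to 4.79 to 6.38 and 6.56 to 9.36 CPM, muscle ones to 41.2 to 42.5 and 11.8 to 93.3 CPM, and neural ones to 193 to 209 and 35.7 to 95.6 CPM. The part of these cell types in the results above was not tested. Of 4 tested neural markers 3 fell, Tubb3 from 51.4 ± 4.41 to 8.98 ± 0.428 CPM; Nes, at 77.8, 79.98, 21.2 and 24.8 CPM in double-positive cells, lost its call when any 1 fibroblast library was left out (edgeR adjusted p from 0.054 to 0.057) and without libraries 3 and 4 (log2 fold change -0.77).

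The largest changes over all genes, among those of at least 10 CPM whose libraries did not overlap, took in genes on no list. Cd200r4, an activating receptor of the CD200 receptor family, had no fibroblast count and 46.4, 41.8, 55.4 and 62.4 CPM in double-positive cells, at least 839.8-fold higher. The casein gene Csn1s1, best known from mammary gland, was at least 215-fold higher at 11.1, 11.7, 15.2 and 14.8 CPM, and Csn2, β-casein, was at 13.1, 14.5, 62.1 and 49.9 CPM against at most 0.171 CPM in fibroblasts. Wfdc17, an antiprotease-like secreted protein, was at least 202-fold higher at 12.4 ± 2.29 CPM. The transmembrane protease Tmprss11d was 1222-fold higher (95% counting interval 338 to 10100) at 40.5, 37.8, 55.99 and 65.9 CPM. Gpr65, a proton-sensing receptor, was 904-fold higher (95% counting interval 249.9 to 7475). At the other end, Agtr2, the type 2 angiotensin receptor, was at 19.6, 14.2, 15.1 and 16.6 CPM in fibroblasts and at 0.463, 0.326, 0.392 and 0 CPM in double-positive cells (log2 fold change -5.69 ± 0.33, edgeR adjusted p = 1.2e-07). The eosinophil attractant Ccl11 had a log2 fold change of -5.49, the antiprotease Serpina3n one of -4.99, the sphingosine 1-phosphate receptor S1pr3 one of -4.99, the growth factor Ptn one of -4.71 and the stromelysin Mmp3 one of -4.41. S1pr3 went from 301, 256, 248 and 271 CPM to 12.7, 13.6, 3.62 and 3.28 CPM.

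Short noncoding RNAs were mostly lower. Of 184 tested short RNAs such as small nucleolar, small nuclear and Y RNAs, 84.8% were lower and 1 was higher. They made up 1.18% of tested genes, 7.51% of the lower ones and 0.0596% of the higher ones. Rny3, a Y RNA, was at 45.1, 106.6, 114.02 and 55.5 CPM in fibroblasts and at 2.87, 5.64, 3.62 and 5.33 CPM in double-positive cells (log2 fold change -4.17 ± 0.41, edgeR adjusted p = 8.6e-05). Snora7a, which guides pseudouridylation, was at 5.55, 14.1, 15.1 and 6.58 CPM in fibroblasts and had no count in double-positive cells, at least 133.8-fold lower. Fibroblast libraries 2 and 3 held more of both than libraries 1 and 4. The low level was shared with day 3 YFP+ cells, with Rny3 at 16.3, 5.86, 5.91, 5.92 and 6.68 CPM. Only 1 short RNA was lower in double-positive than in YFP+ cells. Rny3 was at 24.7, 20.7, 19.2 and 30.1 CPM in C9a fibroblasts and 3.78, 46.7, 13.3 and 7.34 CPM in C9a SII cells. The part of library preparation was not tested. Long noncoding genes and genes annotated as to be experimentally verified were counted together, with 265 higher and 61 lower of 996 tested.

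Sorting on CD45 as well as YFP was examined next. Double-positive cells were compared with the 5 libraries sorted as YFP+ only, and since both comparisons use the double-positive libraries their values are given side by side without a measure of overlap. Of 15587 genes tested 789 were higher in double-positive cells (5.06%) and 898 lower (5.76%), 10.8% in all. The fifth YFP+ library stood apart. Ptprc was at 0.922, 0.723, 0.500, 0.494 and 34.7 CPM in the YFP+ libraries, and Xist at 37.9 to 52 CPM in libraries 1 to 4 and 6.28 CPM in library 5. Without it 1255 genes were higher and 1184 lower. The factors were below the double-positive levels in every YFP+ library: Spib was at 32.7, 34.1, 38.2, 36.7 and 152.3 CPM, Irf8 at 69.1, 77.5, 72.5, 80.3 and 335 CPM and Ikzf2 at 237, 235, 229, 236 and 828.6 CPM. Spib was higher in double-positive cells by 1.98 on the log2 scale, and by 2.74 without library 5.

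Leukocyte genes were higher in double-positive than in YFP+ cells. Of 24 tested pan-leukocyte genes 15 were higher and 0 lower, and 19 were higher without YFP+ library 5. Of 22 kinases and adaptors 12 were higher and 0 lower (17 and 1 without it), and of 22 myeloid receptors 11 were higher and 1 lower (13 and 1 without it). For both counts of 0 the DESeq2 Wald test also gave 0, and 1 gene of each list was lower at an unadjusted p under 0.05. Pirb was at 9.95, 10.8, 8.74, 9.79 and 88.2 CPM in YFP+ cells (log2 fold change 3.10 ± 0.76, edgeR adjusted p = 0.013), and Cd74 at 7.64, 5.46, 5.996, 7.74 and 70.2 CPM (log2 fold change 2.85 ± 0.80, edgeR adjusted p = 0.023). In both genes library 5 lay between the other YFP+ libraries and the double-positive ones. Without it the log2 difference was 4.51 for Pirb and 4.41 for Cd74. The call of Cd74 was lost without YFP+ library 4 or double-positive library 3 or 4 (edgeR adjusted p from 0.051 to 0.052). Clca3a2, a chloride channel regulator, was at 1.19, 2.01, 2.28 and 1.79 CPM in fibroblasts, 3.43, 5.06, 3.33, 4.44 and 44.5 CPM in YFP+ cells and 84.4, 85.9, 103.8 and 107.4 CPM in double-positive cells (log2 fold change 3.005 ± 0.80, edgeR adjusted p = 0.019 against YFP+). Igfbp2, which binds insulin-like growth factors, was at 13.6, 17.8, 13.1, 17.2 and 313 CPM in YFP+ cells and at 356, 377, 1039 and 1127 CPM in double-positive ones (log2 fold change 3.30 ± 1.12, edgeR adjusted p = 0.044). Its call was lost without any 1 of the other YFP+ libraries or any 1 double-positive library (edgeR adjusted p from 0.052 to 0.093), and without YFP+ library 5 the log2 difference was 5.63. The log2 difference of Clca3a2 without that library was 4.62. Wfdc17 was not called between the gates: it was at 11.7, 12.4, 13.3, 14.6 and 13.4 CPM in YFP+ cells, with a log2 difference of -0.03 (edgeR adjusted p = 0.87). The calcium-binding protein gene Calb2, the casein gene Csn2, the neuronal genes Astn1 and Cntnap4 and the tryptophan hydroxylase Tph1 were among the genes with the largest differences, at 3.81, 4.65, 3.69, 3.55 and 3.51 on the log2 scale. They were 6.04, 7.98, 5.005, 4.33 and 4.32 without library 5.

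Interferon-stimulated genes were lower in double-positive than in YFP+ cells in 19 of 38 cases and higher in 1 (22 and 2 without YFP+ library 5). Cytokine genes were lower in 11 of 15 cases, matrix genes in 15 of 32 and G2 and M phase genes in 17 of 24 (12, 16 and 20 without it), with 0 higher in each list by edgeR, also at an unadjusted p under 0.05, and by DESeq2. Oasl2 was at 76.03, 69.1, 82.9, 71.1 and 28.1 CPM in YFP+ cells, all between the fibroblast and double-positive libraries (log2 fold change -1.78 ± 0.33, edgeR adjusted p = 0.0045). Pdgfra, at 162.7, 159.97, 163.6, 171 and 71.2 CPM, was also between them (log2 fold change -1.66 ± 0.23, edgeR adjusted p = 0.0016). Tpx2 was at 106.7, 114.7, 93.6, 106.8 and 60.01 CPM in YFP+ cells against 109.8 to 130.3 CPM in fibroblasts (log2 fold change -1.23 ± 0.17, edgeR adjusted p = 0.0015 for double-positive over YFP+). Crabp1, a retinoic acid binding protein, was at 574 ± 59.9 CPM in fibroblasts, 181 ± 68.8 CPM in YFP+ cells (n = 5) and 31.4 ± 11.6 CPM in double-positive cells (log2 fold change -2.47 ± 0.40, edgeR adjusted p = 0.0031). Il1rl1, the interleukin-33 receptor, was 249 ± 50.98 CPM in YFP+ cells against 49.7 ± 8.18 CPM (log2 fold change -2.27 ± 0.17, edgeR adjusted p = 8.9e-05), and the bone morphogenetic protein family gene Gdf10 had a log2 difference of -3.40. Without YFP+ library 5 the log2 differences were -1.96 for Oasl2, -1.82 for Pdgfra, -1.34 for Tpx2, -2.68 for Crabp1, -2.38 for Il1rl1 and -3.66 for Gdf10. Cells sorted as CD45+ only lay near the double-positive levels: Pirb was at 186, 208, 185, 185 and 117.5 CPM, Clca3a2 at 78.4, 84.97, 94.6, 100.6 and 113.6 CPM and Oasl2 at 26.1, 15.8, 17.7, 15.8 and 11.1 CPM. Acta2, at 824, 669, 541, 459 and 471 CPM in CD45+ cells, overlapped the double-positive values of 243 to 811 CPM.

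**Figure D3:**
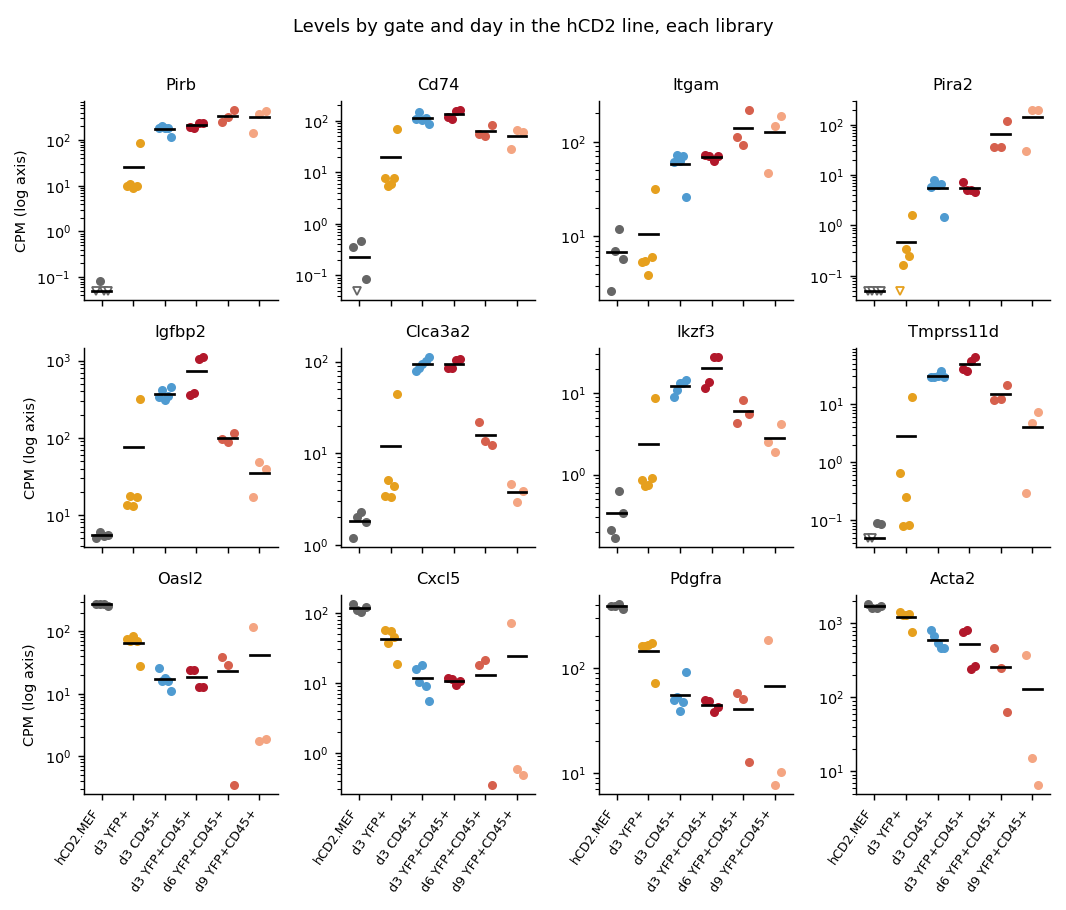
Levels in CPM (log axis) of 12 genes in each library of hCD2 fibroblasts, day 3 YFP+, CD45+ and YFP+CD45+ cells and day 6 and 9 YFP+CD45+ cells. Points are libraries, lines group means, and open triangles libraries under 0.05 CPM drawn at 0.05. Igfbp2, Clca3a2 and Tmprss11d are highest in the day 3 double-positive and CD45+ cells, Pira2 is highest on day 9, and the first day 9 library stands apart in Oasl2, Cxcl5, Pdgfra and Acta2.

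Cells of the same gate on day 9 were then set against day 3. Of 16044 genes tested 719 were higher on day 9 (4.48%) and 332 lower (2.07%), 6.55% in all. The 3 day 9 libraries were unlike each other: Xist was at 145.4, 0.874 and 3.2 CPM. Without day 9 library 1 the counts were 1604 and 1066, 2670 in all, against 1051 with all libraries. That fit sets day 9 libraries 2 and 3, both low in Xist, against day 3 libraries of both kinds. Day and Xist level are thus partly mixed in it. With low Xist as a batch term and all libraries, 1372 genes were called. Without day 9 library 2 or 3, or without day 3 library 3 or 4, 560, 548, 611 and 570 genes were called in all. Of the 719 genes higher on day 9, 21.7% were short noncoding RNAs, against 1.3% of the genes tested.

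Some genes called higher on day 3 than in fibroblasts were lower again on day 9. Of 1677 of them tested here, 183 were lower on day 9 (10.9%) and 53 higher (3.16%). Over all genes tested for day 9, 2.07% were lower and 4.48% higher. Both comparisons use the same day 3 libraries, so these shares are no test. Clca3a2 was at 21.7, 13.8 and 12.2 CPM on day 6 and 4.65, 2.91 and 3.84 CPM on day 9, against 84.4 to 107.4 CPM on day 3 (log2 fold change -4.56 ± 0.20, edgeR adjusted p = 3.0e-05). Igfbp2 was at 97.2, 88.6 and 114.95 CPM and 16.95, 49.2 and 39.2 CPM (log2 fold change -4.30 ± 0.68, edgeR adjusted p = 0.012). Enpp2, the lysophospholipase autotaxin, was at 69.8, 65.2, 118.4 and 133.7 CPM on day 3, 21.6, 14.1 and 25.5 CPM on day 6 and 6.59, 9.90 and 6.56 CPM on day 9 (log2 fold change -3.59 ± 0.35, edgeR adjusted p = 0.0013). In all 3 the day 9 libraries lay below the day 6 libraries, and those below the day 3 ones. Without day 9 library 1 the log2 differences were -4.76, -3.98 and -3.49. Ikzf3 went from 11.7 to 28.2 CPM on day 3 to 2.52, 1.89 and 4.16 CPM (log2 fold change -2.78 ± 0.46, edgeR adjusted p = 0.0097), and the cDC1 marker Cd24a to 28.6, 47.3 and 42.2 CPM (log2 fold change -2.40 ± 0.27, edgeR adjusted p = 0.0019). Tmprss11d, Calb2 and Wipf3, an actin regulator, were lower too, with log2 differences of -3.61, -3.89 and -3.98. Tmprss11d lost its call without day 9 library 2 or any 1 day 3 library, and Wipf3 without day 9 library 1 or 2 or any 1 day 3 library (edgeR adjusted p from 0.053 to 0.10 over both). Cd74 was lower as well, at 27.8, 65.2 and 59.3 CPM (log2 fold change -1.35 ± 0.33, edgeR adjusted p = 0.038), a call lost without day 9 library 2 or 3 or any 1 day 3 library (edgeR adjusted p from 0.052 to 0.10).

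Some myeloid receptors were higher still on day 9. Of 22 tested 6 were higher and 0 lower (1 lower at an unadjusted edgeR p under 0.05, 0 by DESeq2), and 15 were higher and 2 lower without day 9 library 1. Pira2 was at 36.9, 36.6 and 119.3 CPM on day 6 and 30.3, 200.3 and 199.9 CPM on day 9 (log2 fold change 4.79 ± 0.68, edgeR adjusted p = 0.0086), with both later days above every day 3 library. Lilr4b reached 109.5, 409 and 451 CPM (log2 fold change 1.91 ± 0.46, edgeR adjusted p = 0.041), a call lost without day 9 library 2 or 3 or any 1 day 3 library (edgeR adjusted p from 0.086 to 0.12). Cd36 reached 72.9, 101.8 and 91.9 CPM (log2 fold change 1.85 ± 0.20, edgeR adjusted p = 0.0016). Gpnmb, a glycoprotein of macrophages, was at 217, 342 and 312 CPM (log2 fold change 2.72 ± 0.52, edgeR adjusted p = 0.022), and its call was lost without day 9 library 2 or 3 or day 3 library 4 (edgeR adjusted p from 0.054 to 0.060). Tlr2, lower on day 3 than in fibroblasts, was at 33.6, 28.7 and 59.96 CPM (log2 fold change 2.19 ± 0.30, edgeR adjusted p = 0.0050). The aldo-keto reductase Akr1c18 was at 5.75, 5.53, 3.52 and 2.97 CPM on day 3 and 11.1, 92.6 and 95.1 CPM on day 9 (log2 fold change 3.98 ± 0.74, edgeR adjusted p = 0.021), a call lost without day 9 library 2 or 3 or any 1 day 3 library (edgeR adjusted p from 0.051 to 0.071). Without day 9 library 1 the log2 differences were 5.24 for Pira2, 2.29 for Lilr4b, 1.96 for Cd36, 2.87 for Gpnmb, 2.29 for Tlr2 and 4.46 for Akr1c18. The transduced factors were not called: Spib was at 54.2, 143.5 and 164.4 CPM on day 9, and Irf8 at 129.2, 312 and 301 CPM. Of 36 interferon-stimulated genes 0 were called in either direction, by edgeR or DESeq2, and at an unadjusted edgeR p under 0.05 1 was higher and 3 lower. Without day 9 library 1, 24 of them were called lower on day 9. Here and in the lists below, counts without that library mix day with Xist level, as given above. Oasl2 was at 119.6, 1.75 and 1.92 CPM in the 3 libraries, library 1 far above the others. Of 31 matrix genes 0 were called by either tool, with 2 higher and 0 lower at an unadjusted p under 0.05, and 24 were lower without library 1. G2 and M phase genes were lower in 4 of 24 cases and in 24 without that library.

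The same cocktail in the C9a line allowed the day 3 responses of both lines to be compared. The difference between the responses, hCD2 minus C9a, was tested on 16977 genes: 42 had a higher response in the hCD2 line (0.247%) and 51 a lower one (0.300%), 0.548% in all. The C9a line differs from the hCD2 line in its Cre allele, its reporter and the copies of both, and these cannot be told apart. The C9a cells were not uniform: Ptprc was at 344, 1.38, 297 and 106.3 CPM in the 4 SII libraries, so that library 2 was near the fibroblast level in spite of its CD45 gate. The counts moved with single libraries, from 12 to 640 genes in all when 1 was left out, against 93 with all. They were 63 higher and 85 lower without C9a SII library 2, 207 in all without C9a SII library 1 and 640 without C9a SII library 4. Leaving out C9a SII library 3 gave 52, and any 1 hCD2 double-positive library or any 1 fibroblast library of either line gave 12 to 43. Of the 42 higher genes 40 were protein coding, while of the 51 lower ones 24 were short noncoding RNAs (47.1%, against 1.33% of the genes tested) and 6 were protein coding.

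Among the gene lists, Runx1 and Actg2 had a higher response in the hCD2 line and 0 genes a lower one by edgeR. Runx1, a regulator of blood cell formation, went from 52.2 ± 5.99 to 131.6 ± 30.7 CPM in the hCD2 line and from 74.7 ± 3.04 to 89.9 ± 21.1 CPM in the C9a line (log2 difference 1.06 ± 0.24, edgeR adjusted p = 0.0495). Actg2, an actin of smooth muscle, went from 40.9 ± 3.15 to 34.7 ± 16.8 CPM and from 34.3 ± 2.24 to 6.92 ± 2.32 CPM (log2 difference 2.09 ± 0.41, edgeR adjusted p = 0.038). Neither call held throughout: of 24 alternatives Runx1 lost it in 16 and Actg2 in 14. The log2 difference of Runx1 was 0.72 without double-positive libraries 3 and 4 and 0.89 without C9a SII library 2, and that of Actg2 was 1.38 to 2.57 over all alternatives. Without C9a SII library 4, 7 matrix genes were called higher and 2 myeloid receptors lower. Of 25 tested pan-leukocyte genes 0 were called by edgeR or DESeq2, and 1 was lower at an unadjusted edgeR p under 0.05. The counts were the same for 26 myeloid receptors, except that DESeq2 called 1 lower. Of 38 interferon-stimulated genes 0 were called by either tool, and 1 was higher at an unadjusted p. The transduced factors did not pass the test, with log2 differences of 0.98 for Spib, 1.76 for Irf8 and 1.09 for Ikzf2, although DESeq2 called 2 of the 3 higher and the same number passed an unadjusted p under 0.05.

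Genes called in the test of lines included several whose fibroblast levels already differed. Tnn, the matrix protein tenascin-W, was at 16.6, 14.5, 12.6 and 11.9 CPM in hCD2 fibroblasts and 66.9, 80.1, 65.5 and 75.6 CPM in C9a fibroblasts. After transduction it was at 1.02, 0.760, 1.27 and 0.718 CPM and 0.755, 0.690, 0.687 and 0.129 CPM (log2 fold change 3.06 ± 0.38, edgeR adjusted p = 0.0012). Lgr5, a receptor for R-spondins, was at 3.58, 2.09, 4.47 and 2.73 CPM in hCD2 and 15.2, 18.2, 22.5 and 22.96 CPM in C9a fibroblasts, and at 1.76, 1.09, 1.57 and 0.718 CPM and 1.40, 1.38, 1.07 and 1.16 CPM in the SII cells (log2 fold change 2.67 ± 0.40, edgeR adjusted p = 0.0086). For both, the fibroblast libraries of the lines did not overlap while the SII libraries lay close together. Igfbp3, an insulin-like growth factor binding protein, had fibroblast levels of 72.8 ± 9.51 and 312 ± 29.8 CPM and SII levels of 16.2 ± 11.1 and 9.54 ± 0.913 CPM (log2 fold change 2.84 ± 0.50, edgeR adjusted p = 0.028).

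Cxcl14, a chemokine of skin and stroma, started from more similar levels. It was at 45.9, 37.3, 37.8 and 38.2 CPM in hCD2 and 46.4, 44.3, 57.7 and 49.4 CPM in C9a fibroblasts, and at 11.3, 11.4, 8.61 and 7.28 CPM in hCD2 and 2.81, 1.38, 2.06 and 4.38 CPM in C9a SII cells (log2 fold change 2.16 ± 0.29, edgeR adjusted p = 0.0028). All C9a SII libraries lay below all hCD2 ones. Enpp2 rose in the hCD2 line from 2.46, 2.76, 2.19 and 3.67 CPM to 65.2 to 133.7 CPM, and in the C9a line it was at 6.30, 14.4, 6.67 and 7.65 CPM in fibroblasts and 68.7, 26.2, 56.9 and 35.4 CPM in SII cells (log2 fold change 2.69 ± 0.51, edgeR adjusted p = 0.038). Hpgd, which degrades prostaglandins, was at 0.912, 0.585, 0.547 and 0.513 CPM in hCD2 and 2.37, 1.87, 1.13 and 2.03 CPM in C9a fibroblasts. In SII cells Hpgd was at 32.3 ± 15.98 CPM in hCD2 and 16.2 ± 2.05 CPM in C9a (log2 fold change 2.48 ± 0.51, edgeR adjusted p = 0.042). The proteoglycan Podn was at 10.8, 13.5, 11.8 and 11.1 CPM in hCD2 and 31.6, 34.4, 36.2 and 30.2 CPM in C9a fibroblasts. Its SII levels were 52.2 ± 23.3 and 27.3 ± 13.9 CPM (log2 fold change 2.41 ± 0.51, edgeR adjusted p = 0.047). For Hpgd and Podn the fibroblast libraries of the lines did not overlap, whereas the SII libraries did. Gt(ROSA)26Sor, the noncoding RNA of the locus that carries the reporter, was at 2.11, 2.17, 1.37 and 2.31 CPM in hCD2 fibroblasts and 3.52, 3.47, 11.1 and 11.4 CPM in hCD2 SII cells, against 83.3 ± 2.35 and 70.3 ± 12.9 CPM in the C9a groups (log2 fold change 2.11 ± 0.46, edgeR adjusted p = 0.048). The reporter allele is present once in the hCD2 line and on both chromosomes in the C9a line. The kinase gene Dclk1 and Snora73b had a lower response in the hCD2 line (-1.03 and -1.91 on the log2 scale).

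None of these 10 genes kept its call in all 24 alternatives. Tnn, Lgr5 and Cxcl14 lost it in 1 each, the fit over all groups. Igfbp3 lost it in 9, Dclk1 in 12, Enpp2 in 13, Hpgd in 14, Gt(ROSA)26Sor in 16, and Podn and Snora73b in 17 each. Without C9a SII library 2 the differences were 3.09 for Tnn, 2.69 for Lgr5, 1.99 for Cxcl14, 2.77 for Igfbp3, 2.48 for Enpp2 and 1.97 for Gt(ROSA)26Sor. Without double-positive libraries 3 and 4 the difference was 1.01 for Gt(ROSA)26Sor (edgeR adjusted p = 0.13) and 2.13 for Enpp2 (edgeR adjusted p = 0.10).

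**Figure D4:**
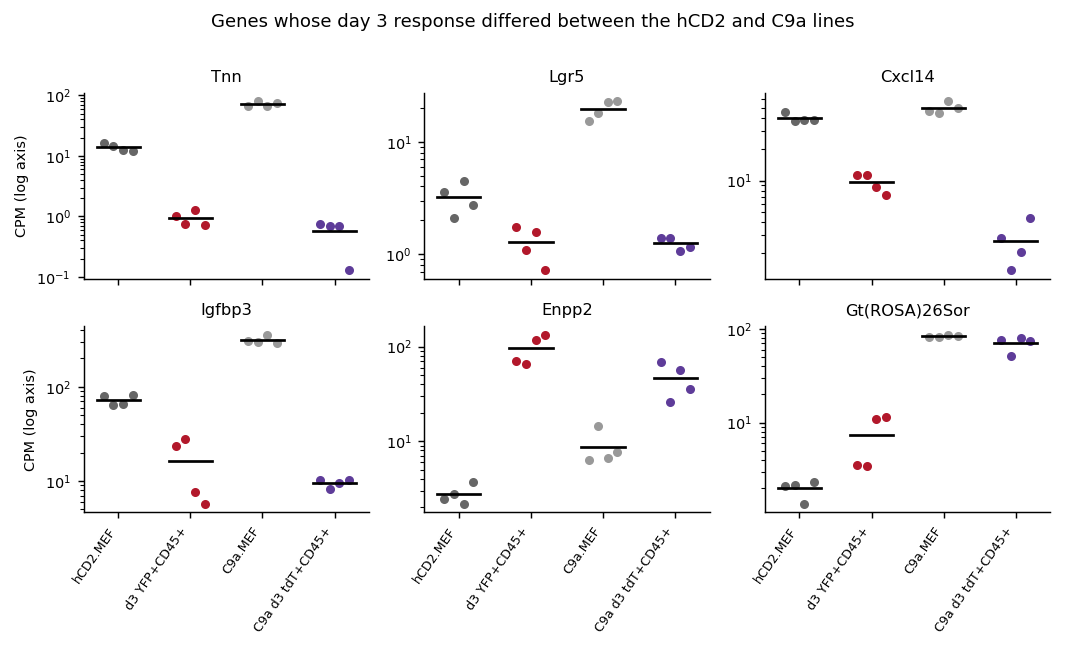
Levels in CPM (log axis) of Tnn, Lgr5, Cxcl14, Igfbp3, Enpp2 and Gt(ROSA)26Sor in fibroblasts and day 3 SII cells of the hCD2 and C9a lines. Points are libraries and lines are group means. In Tnn and Lgr5 the lines differ in fibroblasts and lie close together in SII cells, while in Cxcl14 they differ in SII cells.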

How the data were processed

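RNA of 5000 sorted cells per library was prepared with a stranded total RNA kit for low input and amplified with 13 to 14 PCR cycles, per the labels' protocols. The authors deposited 1 table of gene-level read counts. Per the submitters' processing notes it involved the mm10 genome, STAR 2.7.9a and Salmon 1.10.1. The counting step, annotation and strand setting are not given in the sources used here, so overlapping and antisense genes cannot be told apart. Of 57010 identifiers, 52029 had a name in GENCODE M21. The 4981 without one took 9.38 to 17.7% of the counts of the 8 libraries of the main comparison.

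The deposited counts were tested with edgeR 4.0.16 in R 4.3.3: TMM scaling, filterByExpr by group, robust quasi-likelihood F test, Benjamini-Hochberg adjustment over all tested genes of a comparison. Samples were grouped by the labels. Members and 36 gene lists were chosen with earlier results of these data known. Genes are named by a rule: per list up to 4 called members with the largest change at 5 CPM or more whose libraries do not overlap, up to 2 of opposite direction and the most abundant uncalled one. Over all genes the rule takes the 12 highest and the 12 lowest at 10 CPM or more, and in each other comparison 8 per direction. Further list members are given for their role and were chosen after their values were seen, as were the promoters of Ddx60 and Ifit3b. Intervals and floors of 3 counts cover counting error only, since PCR reads without molecular identifiers are not independent.

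On simulated data for the comparison with fibroblasts, 41.1% of 2-fold and 95.9% of 4-fold changes were recovered, and 0.0265% of unchanged genes were called. For the comparison of lines the values were 16.3, 71.0 and 0.0305%. A true 2-fold change lies at the call threshold itself. The simulation changed far fewer genes than were called in the data. It also drew libraries independently, whereas the double-positive libraries fell into pairs. Its rates are therefore not those of the real comparisons. No libraries were copies of each other: over 37 pairs within groups the lowest chi-square per degree of freedom was 2.93. Alternatives were DESeq2 1.42.0 (size factors, Wald test), no filter on low counts, a replicate block, 1 fit over all groups, no robust estimation, other call thresholds and each library left out. A term for low Xist and leaving out pairs of double-positive libraries were added after seeing the data. Figures were drawn with matplotlib 3.10.9. Some genes and sequences that the rules choose are not reported here.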

Additional observations from a re-analysis of the deposited data

Results flagged for a closer look

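In 411 groups of 4 or 5 libraries whose values are given above, 39 held a library far from the others by Dixon's test, where chance flags about 1 in 20 groups. The fifth YFP+ library accounts for 12 of them. It was the highest of its group in Spib (152.3 CPM), Irf8 (335), Ikzf2 (828.6), Ptprc (34.7), Pirb (88.2), Cd74 (70.2), Clca3a2 (44.5) and Igfbp2 (313). It was the lowest in Oasl2 (28.1 CPM), Pdgfra (71.2), Crabp1 (60.3) and Il1rl1 (158.3). Its levels of the factors and of these genes lay between those of the other YFP+ libraries and those of the double-positive ones. The fifth CD45+ library was the lowest of its group in Pirb (117.5 CPM).

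Among the double-positive libraries, single ones, not the same for each gene, stood high in Pira2 (7.32 CPM), Csf1r (1.86) and Tlr1 (8.51), and low in Csf2ra (5.33), Itgam (62.8) and Bub1 (3.36). In fibroblasts single libraries, likewise not always the same one, stood high in Fn1 (10371 CPM), Tgfbr2 (133.6), Asns (53.8), Cxcl14 (45.9), H2-Q7 (18) and Calb2 (0.502), and low in Col6a3 (608) and Vim (3081). The remaining fibroblast libraries that stood apart did so on 1 or 2 counts: Btk (0.0911 CPM), Pirb (0.0836), Xcr1 (0.0855), Clec12a (0.0911), Itgax (0.167), Ctss (0.0702) and Gpr65 (0.167). In the C9a line, single libraries that differed between genes stood high in fibroblasts for Enpp2 (14.4 CPM) and Igfbp3 (356), and low in SII cells for Runx1 (58.3), Gt(ROSA)26Sor (51.2) and Tnn (0.129).

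The response to the cocktail differed between the lines by the test of the difference itself in 12 genes named above. On the log2 scale, hCD2 minus C9a, the difference was 3.06 in Tnn, 2.84 in Igfbp3, 2.69 in Enpp2, 2.67 in Lgr5, 2.48 in Hpgd and 2.41 in Podn. It was 2.16 in Cxcl14, 2.11 in Gt(ROSA)26Sor, 2.09 in Actg2 and 1.06 in Runx1, and -1.91 in Snora73b and -1.03 in Dclk1. None of the 12 kept its call in all 24 alternatives, and with a replicate block 9 genes were called over the whole table.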

How the results depend on the processing

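Against fibroblasts, the 3754 calls (1678 higher, 2076 lower) moved by more than 1.5 times only with other thresholds: 8766 at an adjusted p under 0.05 with no fold threshold, and 2077 among genes of at least 10 CPM. Leaving out 1 library gave 3699 to 4120. No direction of a called named gene turned; without double-positive libraries 3 and 4 the uncalled Irf7 (-0.05), Bcl11b (-0.37), Ppbp (-0.18) and Acta1 (0.48) did. Of the named genes called here, 89.2% kept their call in all 17 alternatives. For the difference between lines, the 93 calls, 45.2% of them higher, became 210 (35.2% higher) without a filter on low counts and 457 (26.9%) with DESeq2's Wald test. They became 174 (12.1%) in 1 fit over all groups, 285 (46.7%) without double-positive libraries 1 and 2, and 63 (82.5%) without libraries 3 and 4. Leaving out 1 library gave 12 to 640. Against YFP+ cells, leaving out 1 library gave 1248 to 2439, and 45.7% of the named genes called there kept their call throughout. For day 9 against day 3, the 1051 calls became 2003 without a filter and 1618 in 1 fit over all groups. Leaving out 1 library gave 548 to 2670, and 21 of 44 named genes kept their call throughout. The causes of these moves were not tested.

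The labels do not say that replicate numbers pair libraries, and deviations of same-numbered libraries correlated by -0.012 to 0.068 against fibroblasts, -0.113 to 0.068 over both lines, -0.161 to 0.104 against YFP+ cells, and 0.216, -0.083 and 0.262 for day 9. In none of these did every library correlate best with its own number. With the replicate number as a block the calls were 3747 against fibroblasts, 9 between lines, 2485 against YFP+ cells and 460 for day 9. Depth limits the genes without a test: markers under about 1 CPM in all libraries could not be compared.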
